A study of Homo sapiens with 2 samples.

Results

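The miR-148/miR-152 family is a group of human microRNAs (miRNAs) whose 3p arms share 1 seed, the short stretch near the 5′ end through which a miRNA recognizes its target mRNAs. Its members were chosen by name, as hsa-miR-148a-3p, hsa-miR-148a-5p, hsa-miR-148b-3p, hsa-miR-148b-5p and hsa-miR-152-3p, and all 5 were present among the 1450 mature miRNAs of the table. A miRNA hairpin yields a 5p and a 3p arm, and the arm that is loaded into Argonaute and kept is called the guide, while its partner, the passenger, is mostly degraded. The 3p arms of this family are guides known to repress DNMT1, the maintenance DNA methyltransferase. From work in mouse T helper 1 cells, miR-148a is also known to be induced on repeated activation and to repress BIM (gene BCL2L11), a protein that promotes apoptosis.

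Small RNA was sequenced from Jurkat cells, an immortalized line of leukemic human T cells, after infection with a lentivirus carrying the lncRNA PELATON or with a control lentivirus, followed by puromycin selection of stably infected cells. GEO gives 1 sample labelled lnc-CEBPB-13 overexpression and 1 sample labelled control. The labels do not name PELATON. Here lnc-CEBPB-13 is taken to be PELATON, since the paper describes Jurkat cells overexpressing PELATON. Each deposited group mean was made from 2 libraries, whose whole reads could be recovered for 1450 of the 1450 values, and the libraries are called A and B within a group, with no pairing between the letters. Whether they were grown as separate cultures is not stated in any source, and p-values therefore measure only the spread between these libraries.

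Recovered depth was 2052494 and 1177485 reads for overexpression A and B and 2615868 and 2663279 reads for control A and B. PELATON was not in the table, so the labels could not be checked against it. A miRNA is said to have risen or fallen with overexpression at an adjusted p under 0.05 from limma, which 1.88% and 3.05% of 1115 miRNAs tested did, respectively. All 6 marker miRNAs of blood cells were present, with a summed normalised count of 251300 to 255446 with overexpression against 269621 to 284514 in control. Of the 6, 1 (miR-142-5p) fell. The sum was mostly miR-181a-5p (log2 ratio -0.09). The ratios of the other blood markers ran from -0.74 for miR-142-5p to -0.06 for miR-155-5p, which was at only 2.72 to 11.0 normalised counts. Of 5 markers of heart and skeletal muscle, 4 rose, with a sum of 4078 to 4891 against 33.1 to 56.0, and miR-133b and miR-206 were at 0 reads in both control libraries. The sum of 5 markers of smooth muscle and fibroblasts was 437 to 502 against 115 to 151, with 2 of 5 rising, and that of 3 markers of red blood cells was 769 to 1126 against 121 to 158, with 1 of 3 rising. None of 6 markers of epithelia passed the test, and their sum was 654 to 827 against 856 to 894. Of 3 liver markers 1 fell, with a sum of 2871 to 2953 against 4292 to 4624. That sum was mostly miR-192-5p and miR-194-5p, of which miR-194-5p fell. The third, miR-122-5p, stood at 52.7 and 183 against 32.0 and 28.0, without passing the test. Of 2 neuronal markers 1 rose and 1 fell, with a sum of 4110 to 4159 against 6738 to 8371. That sum was mostly miR-9-5p, which fell, while miR-124-3p rose, at 35.4 and 52.7 against 0 and 0.85. The part of these markers in the values of the family was not tested.

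The mature sequences show what the family shares and where its members differ. They are written 5′ to 3′ from RefSeq on GRCh38.p14, with the seed (bases 2 to 8) in capitals.
hsa-miR-148a-3p: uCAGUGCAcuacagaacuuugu
hsa-miR-148b-3p: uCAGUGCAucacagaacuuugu
hsa-miR-152-3p: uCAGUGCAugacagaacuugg
hsa-miR-148b-5p: aAGUUCUGuuauacacucaggc
hsa-miR-152-5p: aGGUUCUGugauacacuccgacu

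The seed CAGUGCA was identical in the 3 guides. Positions being counted from 1 at the 5′ end, miR-148a-3p and miR-148b-3p were identical at 20 of 22 bases and differed by C9U and U10C, the base of miR-148a-3p standing first. miR-148b-3p and miR-152-3p were identical at 19 of 21 bases and differed by C10G and U20G, and miR-148a-3p and miR-152-3p differed by C9U, U10G and U20G. All of these differences lie outside the seed. The passenger arms miR-148b-5p and miR-152-5p were less alike, with 18 of 22 bases identical and A2G, U10G, A19C and G21A between them, so that their seeds differ at 1 base. How many mismatches were allowed when reads were counted is not given in the sources used here, so reads with sequencing errors could be divided differently between these near-identical guides.

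The 3 guides come from hairpins on 3 chromosomes, shown 5′ to 3′ with the mature arms listed in RefSeq in capitals.
MIR148A: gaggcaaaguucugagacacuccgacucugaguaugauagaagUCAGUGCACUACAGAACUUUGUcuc
MIR148B: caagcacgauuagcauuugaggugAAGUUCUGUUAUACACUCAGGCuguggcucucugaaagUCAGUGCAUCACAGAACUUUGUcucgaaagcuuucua
MIR152: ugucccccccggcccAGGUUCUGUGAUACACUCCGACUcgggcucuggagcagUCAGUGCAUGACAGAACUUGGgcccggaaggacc

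MIR148A lies on the minus strand of chromosome 7 (chr7:25949919-25949986, GRCh38), outside the annotated genes other than its own, with the lincRNA AC010719.1 516 bp away on the same strand. MIR148B lies on the plus strand of chromosome 12 (chr12:54337216-54337314) in intron 1 of COPZ1, a coat protein subunit of COPI vesicles, and all 9 of the 9 spanning transcripts are intronic there. MIR152 lies on the minus strand of chromosome 17 (chr17:48037161-48037247) in intron 1 of COPZ2, the paralog of COPZ1. The members are therefore transcribed from separate loci, 2 of them inside paralogous genes on the same strand as the host.

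Among the 1285 miRNAs of the table with a RefSeq sequence, 3 held CAGUGCA at bases 2 to 8, and they were the 3 guides of the family. The same 7 bases stood 1 base earlier, at bases 1 to 7, in 3 miRNAs of the miR-130/miR-301 family, miR-130b-3p, miR-301a-3p and miR-301b-3p. The most abundant of these, miR-130b-3p, had normalised counts of 2269 and 2222 with overexpression against 2487 and 2791 in control (limma log2 difference -0.23, SE 0.16, adjusted p = 0.540). The summed guides of the miR-148/miR-152 family outnumbered these 3 miRNAs by 9.51 and 7.85 times with overexpression, against 9.56 and 9.25 times in control.

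The levels of the members spanned a wide range, which had the same order in every library except for 1 neighbouring pair. miR-148a-3p, the main guide, had 20945 and 9843 reads in overexpression A and B and 26504 and 27080 reads in control A and B. Divided by the size factors of the libraries, these were normalised counts of 19024 and 15250 for overexpression and of 21216 and 22977 for control. It was the 18th to 21st most abundant miRNA of each library. Both libraries labelled overexpression were below both control libraries on this scale.

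miR-148b-3p, the second guide, had 3206 and 1558 reads with overexpression and 3508 and 3577 reads in control, or normalised counts of 2912 and 2414 against 2808 and 3035. The groups overlapped, since overexpression A was above control A. miR-152-3p, the guide from the COPZ2 intron, had 465 and 261 reads with overexpression and 632 and 683 in control, or normalised counts of 422 and 404 against 506 and 580. Its libraries labelled overexpression were the lower ones, with no overlap.

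Of the passenger arms, miR-148a-5p had 659 and 392 reads with overexpression and 632 and 525 in control. Its normalised counts of 599 and 607 with overexpression were above those of 506 and 445 in control, the opposite order to that of its guide. miR-148b-5p had 39 and 11 reads with overexpression and 61 and 64 in control, or normalised counts of 35.4 and 17.0 against 48.8 and 54.3. It was lower in both libraries labelled overexpression, which themselves differed by 2.08 times. The other arm of MIR152, miR-152-5p, which is not among the named members, had 4 and 5 reads with overexpression and 4 and 4 in control, too few for a comparison. The neighbours that did not keep 1 order were miR-148a-5p and miR-152-3p: the passenger was above the guide with overexpression, equal to it at 632 reads in control A and below it in control B.

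**Figure D1:**
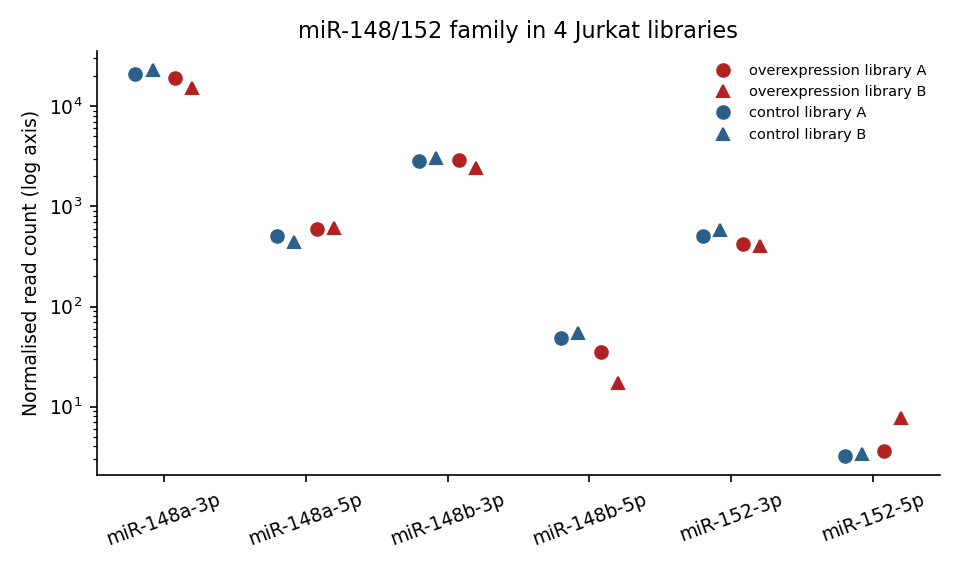
Normalised read count (log axis) of the family members and miR-152-5p in the 4 libraries, with a point per library and no error bar (red, labelled overexpression; blue, control; circles, A; triangles, B). miR-148a-3p stands highest at 15250 to 22977, and the groups overlap for miR-148b-3p.

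The first comparison asked whether the members differed between the groups. On the ratio of the deposited means, with a pseudocount of 1, 0 of the 5 members differed by 2-fold. Of all 1115 miRNAs with a mean of at least 1, 30.3% did. That share includes miRNAs near a mean of 1, where a few reads can make a 2-fold difference, while the members had means of 38.9 to 19617. By limma on the log2 normalised counts of the 4 libraries, 0 of 5 members passed an adjusted p of 0.05, against 4.93% of all miRNAs tested, and 0 of 5 had an unadjusted p under 0.05, against 207 of 1115. All 5 members passed the filter on low values. Their median log2 ratio was -0.37, and that of all miRNAs tested was 0.06.

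miR-148a-3p had a mean of 17137 with overexpression and 22097 in control, and its limma log2 difference was -0.37 (SE 0.17, 95% interval -0.77 to 0.02, adjusted p = 0.296). miR-148b-3p had means of 2663 and 2922 and a limma difference of -0.14 (SE 0.17, interval -0.53 to 0.25, adjusted p = 0.744), which turned to 0.10 when libraries were scaled to total reads. miR-152-3p had means of 413 and 543 and a limma difference of -0.39 (SE 0.20, interval -0.84 to 0.06, adjusted p = 0.351). The estimates of the 3 guides thus lay below 0 on the deposited scale without passing the test, and for each the interval reached past 0. Scaled to total reads, the log2 ratio of means shrank to -0.13 for miR-148a-3p and to -0.15 for miR-152-3p, and it was 0.57 for the passenger miR-148a-5p.

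Of the passengers, miR-148a-5p had means of 603 and 476 and a limma difference of 0.34 (SE 0.19, interval -0.09 to 0.78, adjusted p = 0.409). miR-148b-5p had means of 26.2 and 51.6 and the widest interval, with a limma difference of -1.03 (SE 0.46, interval -2.09 to 0.03, adjusted p = 0.287). Its log2 ratio of means was -0.95, just inside the 2-fold line, and it was -1.54 without overexpression A and -0.53 without overexpression B, so that library B set much of its value. The normalised counts did not overlap between the groups for 4 of 5 members. For 3 of 5 overexpression was the lower, as for 23.8% of all miRNAs tested, and for 1 of 5 it was the higher, as for 22.4% of them.

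**Figure D2:**
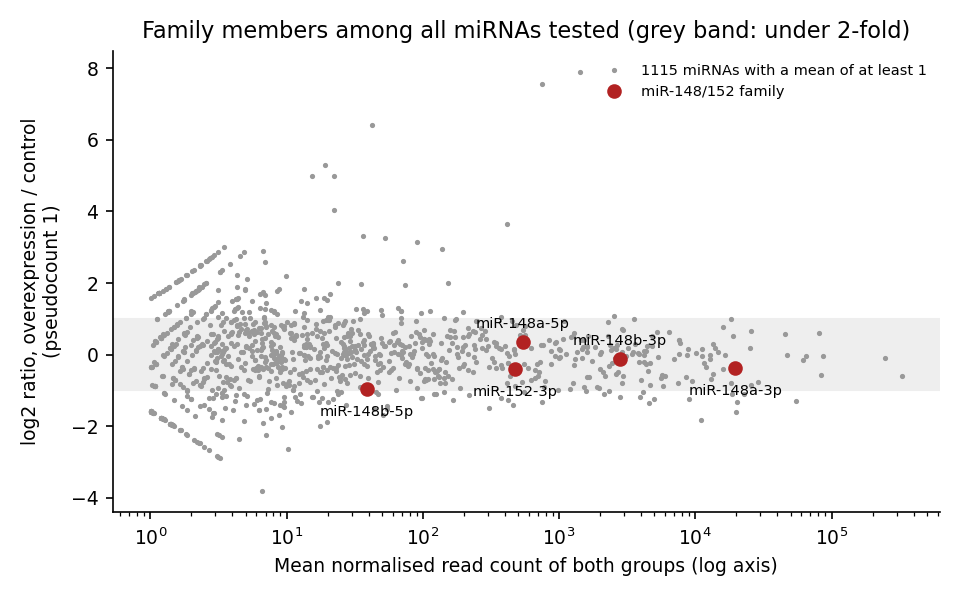
log2 ratio of the overexpression mean over the control mean (pseudocount 1) against the mean normalised read count (log axis), for 1115 miRNAs (grey) and the 5 members (red), without error bars. All 5 members lie inside the grey band of under 2-fold, with miR-148b-5p at -0.95 near its edge.

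**Figure D3:**
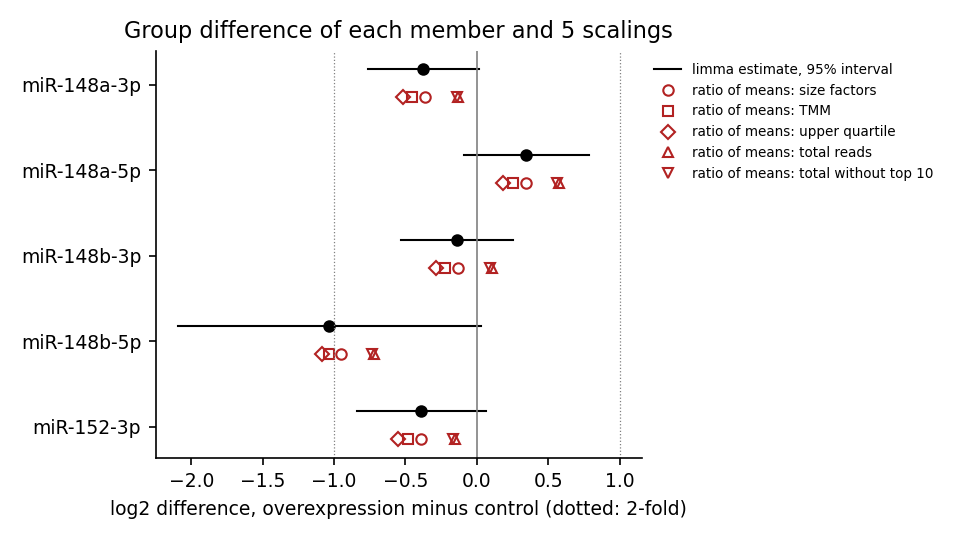
log2 difference of each member, overexpression minus control, by limma (black, with the 95% interval, n = 2 libraries per group), and the ratio of means under 5 scalings (red symbols). Every interval reaches past 0, and the ratio of miR-148b-3p is above 0 with both total-read scalings and below 0 with the others.

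The share of all reads does not use the size factors. The family took 1.23% and 1.02% of the reads with overexpression, against 1.20% and 1.20% in control, and these overlapped (exact permutation test, two-sided, p = 1). miR-148a-3p alone took 1.02% and 0.836% against 1.01% and 1.02%, so its groups overlapped as a share of reads, although they did not as normalised counts. With 2 libraries against 2, the smallest p the exact test can give is 0.333, so no such comparison could reach 0.05.

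Within a library, the ratio of 2 guides is free of any scaling between libraries, and it differed in a like way in both libraries of a group. There were 6.53 reads of miR-148a-3p per read of miR-148b-3p in overexpression A (95% interval 6.29 to 6.78, exact binomial) and 6.32 in overexpression B (5.99 to 6.67). In control A and B there were 7.56 (7.29 to 7.83) and 7.57 (7.31 to 7.84). These intervals cover counting error only, since PCR copies are not independent molecules. The ratio was lower in both libraries labelled overexpression, by a log2 difference of -0.24, and the exact permutation p was 0.333, the smallest possible.

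Against miR-152-3p, miR-148b-3p stood at 6.89 and 5.97 with overexpression and at 5.55 and 5.24 in control. miR-148b-3p was the relatively higher guide in the libraries labelled overexpression, with a log2 difference of miR-152-3p over miR-148b-3p of -0.25 (exact permutation p = 0.333). This ratio and that of miR-148a-3p to miR-148b-3p rest on the same miR-148b-3p reads, so they are not separate observations. How often other pairs of miRNAs separate in this way was not computed. The ratio of miR-148a-3p to miR-152-3p, at 45.0 and 37.7 against 41.9 and 39.6, overlapped between the groups (exact permutation p = 1). As a share of family reads, miR-148a-3p made up 82.7% and 81.6% with overexpression and 84.6% and 84.8% in control, and miR-148b-3p 12.7% and 12.9% against 11.2% and 11.2%. miR-152-3p kept a share of 1.84% to 2.16% over the 4 libraries, and the passenger miR-148a-5p took 2.60% and 3.25% against 2.02% and 1.64%.

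The arms of each hairpin were compared as the ratio of 3p to 5p reads. The 3p arm was the major arm of both hairpins in every library, and by the mean log2 ratio miR-148b ranked 13th and miR-148a 21st of 188 hairpins with at least 20 reads of each arm, summed over the 4 libraries. For miR-148a the ratio was 31.8 (29.4 to 34.4) and 25.1 (22.7 to 27.8) with overexpression and 41.9 (38.8 to 45.5) and 51.6 (47.3 to 56.3) in control. For miR-148b it was 82.2 (60.0 to 116) and 142 (78.9 to 284) with overexpression and 57.5 (44.7 to 75.3) and 55.9 (43.7 to 72.7) in control. The libraries labelled overexpression thus had the lower arm ratio for miR-148a and the higher one for miR-148b, with no overlap in either, and exact permutation p = 0.333 for each.

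**Figure D4:**
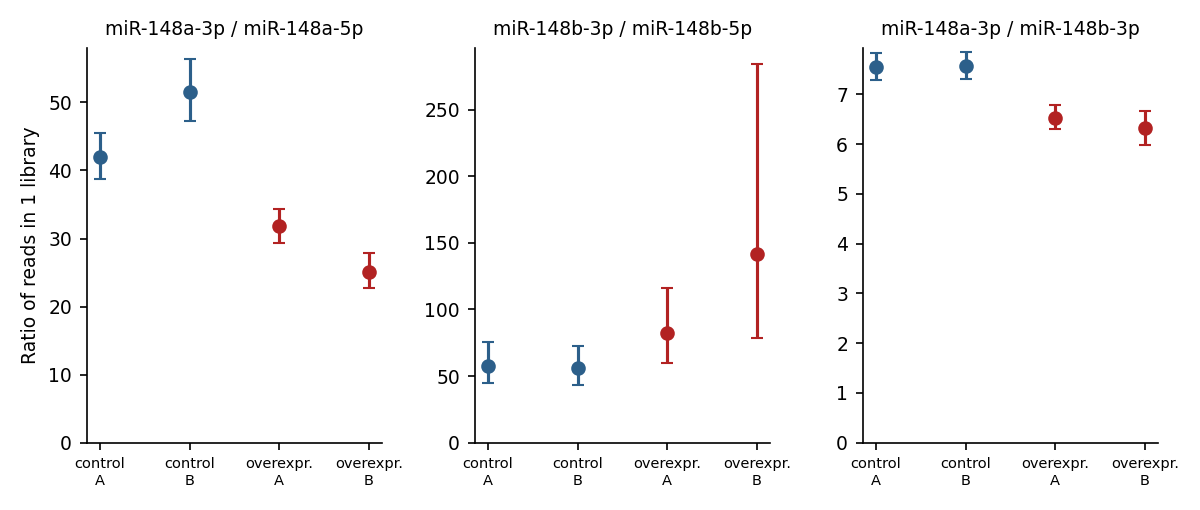
Ratio of reads within each library for the arms of miR-148a, the arms of miR-148b, and miR-148a-3p over miR-148b-3p (blue, control; red, labelled overexpression; bars, exact 95% binomial intervals; each axis starts at 0). The groups separate in all 3 panels, downward for the arms of miR-148a and for the guides and upward for the arms of miR-148b, and overexpression B has the widest interval for miR-148b, at 78.9 to 284.

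Such separation of arm ratios was common, as 54.3% of the 188 hairpins did not overlap between the groups. The log2 difference in arm ratio was -0.72 for miR-148a (limma SE 0.43, 95% interval -1.86 to 0.42, adjusted p = 0.401), and 48.9% of the hairpins differed by at least as much in either direction. It was 0.90 for miR-148b (limma SE 0.47, interval -0.35 to 2.15, adjusted p = 0.362), and 33.0% of the hairpins differed by at least as much. By limma 0 of 188 hairpins (0%) passed an adjusted p of 0.05, and 31 had an unadjusted p under 0.05. The arm ratio of miR-152 rested on the 4 or 5 reads of its 5p arm and was not compared.

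**Figure D5:**
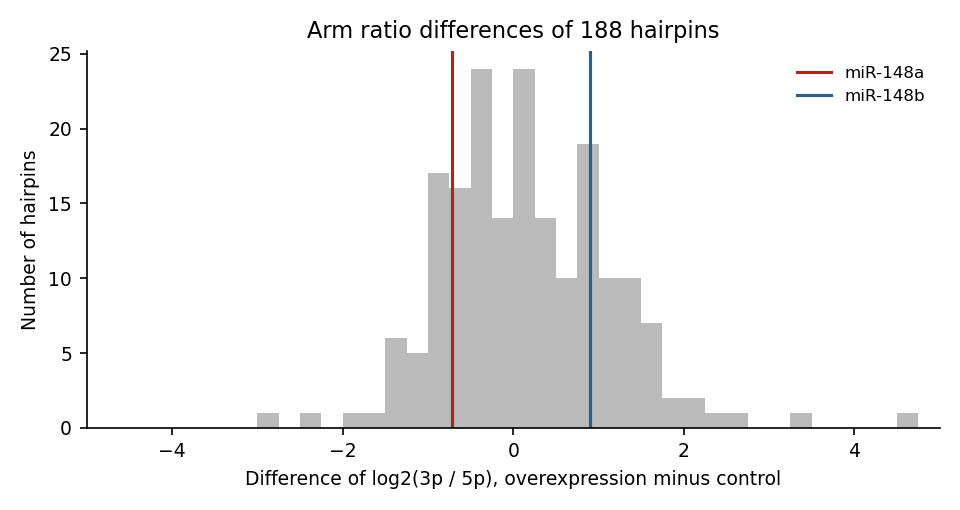
Number of hairpins by the difference of log2(3p / 5p) between the groups, overexpression minus control, for 188 hairpins, with lines at miR-148a and miR-148b. The lines at -0.72 and 0.90 lie on either side of 0 within the bulk of the histogram.

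The miRNAs nearest in pattern were found by the root mean square (RMS) difference of centred log2 normalised counts over the 4 libraries, among 297 miRNAs with a mean of at least 100. For miR-148a-3p they were miR-1304-3p (RMS 0.0088), miR-26a-5p (0.046) and miR-455-3p (0.047). For miR-148b-3p they were miR-107 (0.041), miR-30d-3p (0.053) and miR-378a-5p (0.054), and for miR-152-3p they were miR-3200-3p (0.029), miR-340-5p (0.043) and miR-26a-5p (0.051). The guides of the family were not each other's nearest neighbours: from miR-148a-3p, miR-152-3p came 11th (RMS 0.095) and miR-148b-3p 17th. From miR-148b-3p, miR-148a-3p came 26th and miR-152-3p 45th, and from miR-152-3p, miR-148a-3p came 16th and miR-148b-3p 42nd. Counting error alone gave the log2 gap of miR-152-3p between libraries of a group an SD of 0.11 with overexpression and 0.080 in control. Ranks at an RMS of this size are not well resolved.

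Other miRNAs known to be directed at the same mRNAs were set beside the family as lists. These lists, and that of T helper cells below, were chosen with earlier results of these data known. Their counts are therefore not an independent test. Of 8 miRNAs directed at DNA methyltransferase mRNAs, 3 fell and 1 rose by limma with the adjustment over all miRNAs, whereas 3.05% of all miRNAs tested fell and 1.88% rose. The median log2 ratio of the list was -0.45, against 0.06 for all miRNAs tested. Those that fell were the miR-29 guides, which are known to repress DNMT3A and DNMT3B: miR-29a-3p (log2 ratio -0.66, adjusted p = 0.0456), miR-29b-3p (-0.90, adjusted p = 0.0309) and miR-29c-3p (-0.85, adjusted p = 0.0237). The miRNA that rose was miR-143-3p (2.95, adjusted p = 0.0018), which is also 1 of the smooth muscle markers above.

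Of 8 miRNAs directed at BIM, 3 fell by limma and none rose, against 3.05% and 1.88% of all miRNAs tested, and the median log2 ratio of the list was -0.78 against 0.06. They were miR-17-5p (log2 ratio -1.32), miR-32-5p (-1.13) and miR-363-3p (-0.80). Every miRNA of this list belongs to the miR-17 or miR-92 seed family, so the families of those that fell were set by the list. Of 7 miRNAs known to be induced in activated T helper cells, miR-146a-5p (0.91) and miR-221-3p (0.77) rose and none fell, against 1.88% and 3.05% of all miRNAs tested, with a median of 0.11 against 0.06. Without passing the test, miR-132-3p was at -0.61, miR-21-5p at -0.53 and miR-155-5p at -0.06. Likewise, miR-182-5p was at 0.20 and miR-222-3p at 0.11.

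The table holds no mRNA, so the targets were not measured, and only their sequences can be shown. The motif TGCACTG, the reverse complement of the seed in DNA letters, was searched on the transcript strand in the longest 3′ UTR of each gene, and it occurs in 13.8% of 19081 annotated 3′ UTRs and in 12.9% of 19627 coding regions. DNMT1 held 1 match in its 3′ UTR of 321 bases, and BCL2L11 held 2 in 4480 bases. GADD45A, a stress-response protein, held 1 in 564 bases and another in its coding region. GATA3, the transcription factor of T helper 2 cells, held 0 in 1180 bases, and the PELATON transcript of 539 bases held 0, while 3 of the 5 annotated transcripts of that gene hold the motif. Windows of 22 bases on GRCh38 are shown 5′ to 3′ on the transcript strand, with the motif in capitals, for DNMT1 and BCL2L11, since these are the targets named above.
DNMT1 (chr19:10133612-10133633, minus strand): aggaatccccaacaTGCACTGa
BCL2L11 (chr2:111165246-111165267, plus strand): ccatggtcacaggaTGCACTGt
BCL2L11 (chr2:111168311-111168332, plus strand): gcttacttgtgtttTGCACTGa

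In DNMT1 and in the second BCL2L11 window the motif is followed by an A, the form in which a seed match is extended opposite the first base of the miRNA. Since the seed is the same in the 3 guides, each window pairs with the seed of all of them, and the guides differ only in the bases beyond it. A match is a description of these letters and not evidence of binding in these cells.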

How the data were processed

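Small RNA libraries were made and sequenced on Illumina instruments by the authors, per the paper's methods, although an mRNA kit is described in the sample labels. The deposited signal values are read counts per miRNA divided by DESeq size factors and averaged by the authors over the libraries of a group (GRCh38.p14 per the submitters' notes). The aligner and the miRNA annotation are not given in the sources used here. The deposited ratio (fold of control over overexpression), its log2 and the DESeq p-value are the authors' own comparison and were not used.

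Each group mean is a sum of whole reads of 2 libraries, each times a fixed step, and every value had 1 solution (relative tolerance 1e-12). This gave the reads of single libraries and their size factors. Log2 normalised counts with a pseudocount of 1 were compared by limma 3.58.1 (trended variance, R 4.3.3) over the 1115 miRNAs whose group means averaged 1 or more, p-values being adjusted by Benjamini-Hochberg. A miRNA was said to rise or fall at an adjusted p under 0.05. Ratios within a library were compared by exact permutation tests (Python 3.11.15, scipy 1.17.1), and arm ratios by limma with 0.5 reads added, a test chosen after the data were examined. Scripts were tested on simulated data. The text names the 5 members, miR-152-5p, every miRNA with the seed within its first 9 bases, the lists, and the 3 nearest miRNAs of each guide. It also names 3 miRNAs that the paper reports as downregulated by PELATON overexpression. The seed search of 1 further target transcript is not reported here. The members and lists were chosen with earlier results of these data known. Alternatives were 4 scalings, pseudocounts, filters, fold thresholds and leaving out each library.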

Additional observations from a re-analysis of the deposited data

How the results depend on the processing

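With TMM scaling, with upper-quartile scaling or with a 1.5-fold threshold, the count of members past the fold threshold was 1 in place of 0, and that member was miR-148b-5p. Leaving out 1 library, the count was 0 to 1, and it was 1 without overexpression A or without control A. The limma difference of miR-148b-3p reversed from -0.14 to 0.10 with total reads and to 0.087 with total reads without the 10 most abundant miRNAs. A change of scaling moves all miRNAs of a library together. With total reads miR-148a-3p moved from -0.37 to -0.14 and miR-152-3p from -0.39 to -0.15. Why the scalings differ was not tested. Relative to the size factors, the median of all miRNAs tested moved by 0.21 and 0.20 under both total-read scalings, and by -0.09 and -0.15 with TMM and upper-quartile scaling. The family's share of reads differed by -0.0694 percentage points, and by -0.174 to 0.0349 with 1 library left out, reversing without overexpression B. By limma 0 of 5 members passed under every alternative run, with adjusted p of 0.182 to 0.683 for miR-148a-3p, 0.167 to 0.754 for miR-148a-5p, 0.419 to 1 for miR-148b-3p, 0.178 to 0.684 for miR-148b-5p and 0.210 to 0.692 for miR-152-3p. A fit with 1 library left out assumes that the lone library varies like the other group. miR-148b-5p had 11 to 64 reads per library, and its libraries labelled overexpression differed by 1.01 on the log2 scale, against a counting SD of 0.49 for that difference. No paired analysis was possible because the labels give 1 sample per group and the recovered libraries carry no numbers.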
